A study of Mus musculus with 10 samples.

Results

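The Cyp4 cytochromes P450 of mouse liver were taken as 8 genes by name, Cyp4a10, Cyp4a14, Cyp4a31, Cyp4a32, Cyp4f13, Cyp4f14, Cyp4f15 and Cyp4v3, out of 27 Cyp4 genes and pseudogenes and 41388 genes listed in all. Their mRNA was measured by RNA-seq in 10 libraries of C57B/6J liver from littermates 12 weeks old. The 2 WT Fed livers came from mice fasted for 22 h and refed for 2 h, and the 3 WT Fasting and 5 NAMPT LKO Fasting livers from mice fasted for 24 h, as the sample labels give it. The published methods describe a shorter fast and random-fed controls, and the labels were followed here. WT mice carry Nampt with loxP sites on both alleles and no cre. NAMPT LKO mice carry the same alleles with Albumin-cre, given in the published methods as a deletion specific to hepatocytes. Whether the other cells of the liver kept Nampt was not measured. Nampt makes nicotinamide mononucleotide, the precursor of NAD+ in the salvage route.

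Cyp4 enzymes sit in the membrane of the endoplasmic reticulum and hydroxylate fatty acids at or next to the terminal carbon, a step called omega-hydroxylation. Alcohol and aldehyde dehydrogenases then carry the product on to a dicarboxylic acid, which peroxisomes shorten. In mouse liver the Cyp4a genes are classical targets of PPARalpha, the nuclear receptor that fatty acids activate in fasting. The Cyp4f enzymes are better known for hydroxylating leukotriene B4 and the side chains of vitamins E and K.

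Nampt checked the labels. In TMM-normalized counts per library total (CPM, scaled by library size and composition) it was 78.0 and 67.8 in the WT Fed livers, 63.0, 73.4 and 141 in the WT Fasting livers, and 12.1, 14.0, 11.8, 12.5 and 15.3 in the NAMPT LKO Fasting livers. Every NAMPT LKO liver lay below every WT liver. Total counts ranged from 30603080 to 43434139 per library. The livers were rich in hepatocyte transcripts, with a summed level of 7 hepatocyte markers between 68428 and 115976 CPM.

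The 4 Cyp4a members lie in one stretch of chromosome 4 of GRCm38. Cyp4a14 (ENSMUSG00000028715) runs from 115486200 to 115496142 on the minus strand, and Cyp4a10 (ENSMUSG00000066072, 115518264 to 115533649), Cyp4a31 (ENSMUSG00000028712, 115563649 to 115579015) and Cyp4a32 (ENSMUSG00000063929, 115600969 to 115621602) follow on the plus strand. The 3 Cyp4f members lie on chromosome 17, Cyp4f15 (ENSMUSG00000073424, 32685627 to 32703352) on the plus strand, and Cyp4f14 (ENSMUSG00000024292, 32905071 to 32917342) and Cyp4f13 (ENSMUSG00000024055, 32924688 to 32947402) on the minus strand. Cyp4v3 (ENSMUSG00000079057), the mouse counterpart of the gene mutated in human Bietti crystalline dystrophy, lies apart on the minus strand of chromosome 8, from 45269671 to 45333216.

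Cyp4a10, Cyp4a31 and Cyp4a32 are near-identical copies, which limits how well reads of 50 bases can be told apart. The first 90 coding bases of each are shown as an example, beside those of Cyp4a14. Bases that differ from Cyp4a10 at the same position are in capitals (GENCODE transcripts of GRCm38).
Cyp4a10: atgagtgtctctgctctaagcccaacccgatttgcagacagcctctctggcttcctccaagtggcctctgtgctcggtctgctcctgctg
Cyp4a32: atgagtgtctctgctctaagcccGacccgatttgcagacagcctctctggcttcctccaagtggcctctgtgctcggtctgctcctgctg
Cyp4a31: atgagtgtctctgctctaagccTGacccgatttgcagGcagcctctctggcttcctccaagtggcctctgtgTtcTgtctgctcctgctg
Cyp4a14: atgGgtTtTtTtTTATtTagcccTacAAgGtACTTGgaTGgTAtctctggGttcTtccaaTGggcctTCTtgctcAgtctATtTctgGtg
In this stretch Cyp4a32 differed from Cyp4a10 at 1 base, Cyp4a31 at 5 bases and Cyp4a14 at 34 bases. Over the whole coding sequence, Cyp4a10 was 97.2% identical to Cyp4a32, 96.6% to Cyp4a31 and 77.6% to Cyp4a14. The longest identical run of coding bases was 179 between Cyp4a10 and Cyp4a32 and 211 between Cyp4a31 and Cyp4a32. Of all stretches of 50 bases in their transcripts, 43.8% in Cyp4a32, 29.8% in Cyp4a10 and 20.6% in Cyp4a31 also occurred in another gene. A read from there has no unique place. The stretches of Cyp4a31 were shared with 2 Cyp4 genes and 559 other genes. The shares were 0.235% in Cyp4a14, 1.11% in Cyp4f13, 2.39% in Cyp4f14 and 2.28% in Cyp4f15. Only reads aligned to a unique place were counted, so the levels of the 3 near-identical Cyp4a genes are uncertain against each other. Cyp4v3 shared 7.02% of its stretches, all with Gm45753, a protein-coding gene on the same strand whose span overlaps that of Cyp4v3 by 25189 bases.

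Cyp4a10 and Cyp4a14 were by far the most abundant members. Divided by exon length as the files give it, Cyp4a10 stood at 1493 ± 86.9 CPM per kilobase (SD, n = 2) in WT Fed livers, 1938 ± 416 (SD, n = 3) in WT Fasting livers and 1824 ± 471 (SD, n = 5) in NAMPT LKO Fasting livers. Cyp4a14 stood at 1314 ± 83.1 (SD, n = 2), 1842 ± 306 (SD, n = 3) and 1907 ± 357 (SD, n = 5) on the same scale. Their mean levels per kilobase ranked 33rd and 34th of the 13444 genes tested. Together these genes took between 0.646% and 1.04% of all counts of a library, and the 8 members together between 0.738% and 1.14%.

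Cyp4a32 came next among the members, at 87.9 ± 4.01 CPM per kilobase (SD, n = 2) in WT Fed and 145 ± 15.2 (SD, n = 3) in WT Fasting livers. Cyp4v3 stood at 62.1 ± 2.43 CPM per kilobase (SD, n = 2) in WT Fed livers, where it overlapped Cyp4f14 (61.7 ± 7.83). In WT Fasting livers it stood at 62.7 ± 4.84 (SD, n = 3) and overlapped Cyp4f15 (59.8 ± 3.60) instead. Cyp4f14 and Cyp4f15 thus changed places in the order of levels. Cyp4a31 and Cyp4f13 were lowest in every group, between 15.7 and 22.7 CPM per kilobase on average. In WT Fasting livers the other neighbours in the order, apart from Cyp4a10 and Cyp4a14, did not overlap, and in NAMPT LKO Fasting livers Cyp4a10 and Cyp4a14, Cyp4v3 and Cyp4f15, Cyp4f14 and Cyp4a31, and Cyp4a31 and Cyp4f13 overlapped.

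**Figure D1:**
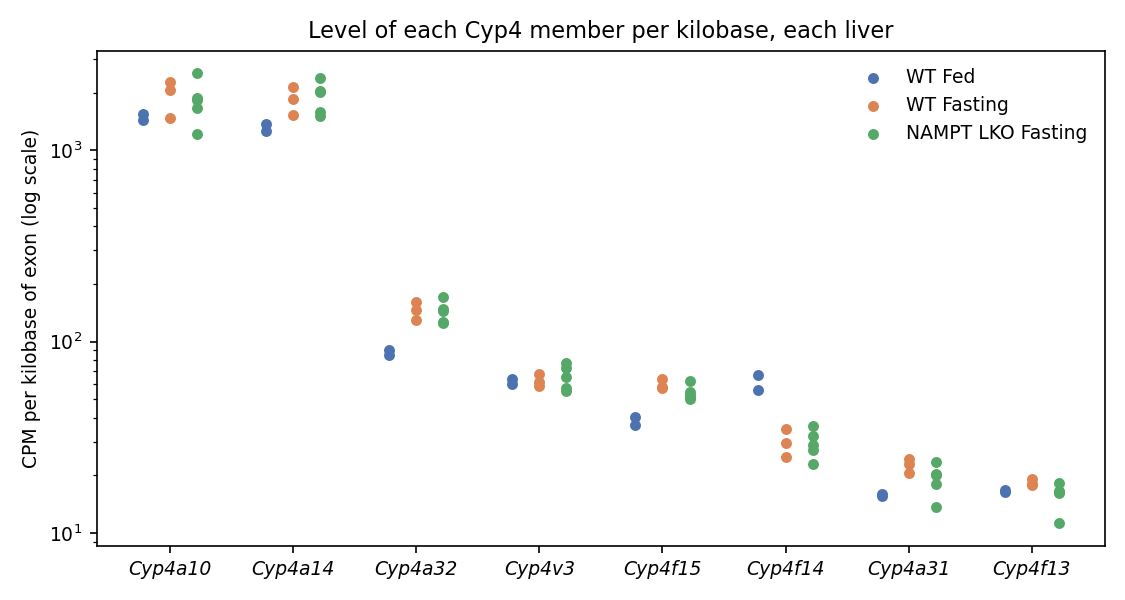
TMM-normalized counts divided by exon length in kilobases (log scale) for each Cyp4 member, with 1 point per liver, in the order of the WT Fasting means. Cyp4a10 and Cyp4a14 lie far above the others in all livers, and Cyp4f14 moves from beside Cyp4v3 in WT Fed livers to below Cyp4f15 in the fasted livers.

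The fasting comparison, WT Fasting vs. WT Fed livers, asked how fasting against refeeding changes these genes when Nampt is intact. Since the WT Fed mice had also fasted, for 22 h, a change by fasting and a change by 2 h of refeeding cannot be told apart. Here rose and fell mean higher and lower in the fasted than in the refed livers. Of the 8 members, Cyp4a32 and Cyp4f15 rose, Cyp4f14 fell, and 5 did not pass the test. The largest change was that of Cyp4f14, the leukotriene B4 and vitamin E hydroxylase, at 0.482 of its level in the refed livers. Cyp4f15, on the same chromosome, rose 1.55-fold. These 3 called members compare with 7.04% of all genes tested, and 2 rose and 1 fell where 360 genes rose and 586 fell in all. The median log2 fold change of the 8 members was 0.43 against 0.037 over all genes. The livers did not overlap between the groups in 6 of 8 members, against 49.7% of all genes. The members were chosen with earlier results of these data known, so these shares are no test of the family. Of the 7 other Cyp4 genes tested, none was called.

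Cyp4f14 was 135 and 162 CPM in the WT Fed livers, and 59.8, 83.9 and 71.0 CPM in the WT Fasting livers. All 3 fasted livers lay well below both fed livers. The log2 fold change was -1.05 (standard error, SE, 0.20, 95% interval -1.48 to -0.62, adjusted p = 0.0104, edgeR's quasi-likelihood test).

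Cyp4f15, another leukotriene B4 hydroxylase, was 83.9 and 92.3 CPM in the WT Fed livers and 132, 146 and 131 CPM in the WT Fasting livers. Again no liver of one group reached into the other. Its log2 fold change was 0.63 (SE 0.13, 95% interval 0.35 to 0.91, adjusted p = 0.0137, edgeR's quasi-likelihood test). The ratio of Cyp4f15 to Cyp4f14 per kilobase was 0.601 and 0.654 in the WT Fed livers, and between 1.83 and 2.33 in the WT Fasting livers. The balance of these enzymes' mRNAs was therefore inverted, with Cyp4f14 above Cyp4f15 in each fed liver and below it in each fasted one. The coding sequences of the pair are 82.1% identical, with a longest identical run of 67 bases.

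Cyp4a32 was 131 and 139 CPM in the WT Fed livers and 246, 225 and 199.6 CPM in the WT Fasting livers. Its log2 fold change was 0.73 (SE 0.16, 95% interval 0.38 to 1.08, adjusted p = 0.0207, edgeR's quasi-likelihood test), a 1.65-fold rise. This call rests on the reads that fall outside its shared stretches. The ratio of Cyp4a32 to Cyp4a31 per kilobase was 5.33 and 5.80 in the WT Fed livers and between 6.35 and 6.54 in the WT Fasting livers.

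Cyp4a14, an omega-hydroxylase gene often used as a readout of PPARalpha, was 3571 and 3265 CPM in the WT Fed livers and 5574, 4815 and 3982 CPM in the WT Fasting livers. The fasted livers were all higher, but they spread widely, and the log2 fold change of 0.49 (SE 0.21, 95% interval 0.022 to 0.95) did not pass (adjusted p = 0.201, edgeR's quasi-likelihood test). Cyp4a31 was 40.0 and 39.3 CPM in the WT Fed livers and 61.5, 57.8 and 51.4 CPM in the WT Fasting livers. It did not overlap either, with a log2 fold change of 0.52 (SE 0.19, adjusted p = 0.139, edgeR's quasi-likelihood test). With limma's voomWithQualityWeights, named in the published methods, both passed. That method called 24.8% of all genes here, against 7.04% in the main fit. Cyp4a14 had a log2 fold change of 0.52 (adjusted p = 0.0187) and Cyp4a31 one of 0.55 (adjusted p = 0.0123). With edgeR's exact test, named in the published figure legend, neither passed (adjusted p = 0.266 for Cyp4a14 and 0.134 for Cyp4a31). Neither passed with DESeq2 (adjusted p = 0.141 and 0.096).

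Cyp4a10 was 3279 and 3019.8 CPM in the WT Fed livers and 4811, 4340.4 and 3113 CPM in the WT Fasting livers. The lowest fasted liver lay between the fed ones, and the log2 fold change was 0.38 (SE 0.27, adjusted p = 0.446, edgeR's quasi-likelihood test). Cyp4f13, a further leukotriene hydroxylase of the family, was 54.4 and 56.0 CPM in the WT Fed livers and 60.0, 64.0 and 59.7 CPM in the WT Fasting livers. These livers did not overlap, yet the log2 fold change was only 0.15 (95% interval -0.23 to 0.53, adjusted p = 0.658, edgeR's quasi-likelihood test). Cyp4v3 was 377 and 398 CPM in the WT Fed livers and 384, 425 and 366 CPM in the WT Fasting livers. Its log2 fold change was 0.016 (95% interval -0.34 to 0.37, adjusted p = 0.970, edgeR's quasi-likelihood test), and its fed and fasted livers were mixed.

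**Figure D2:**
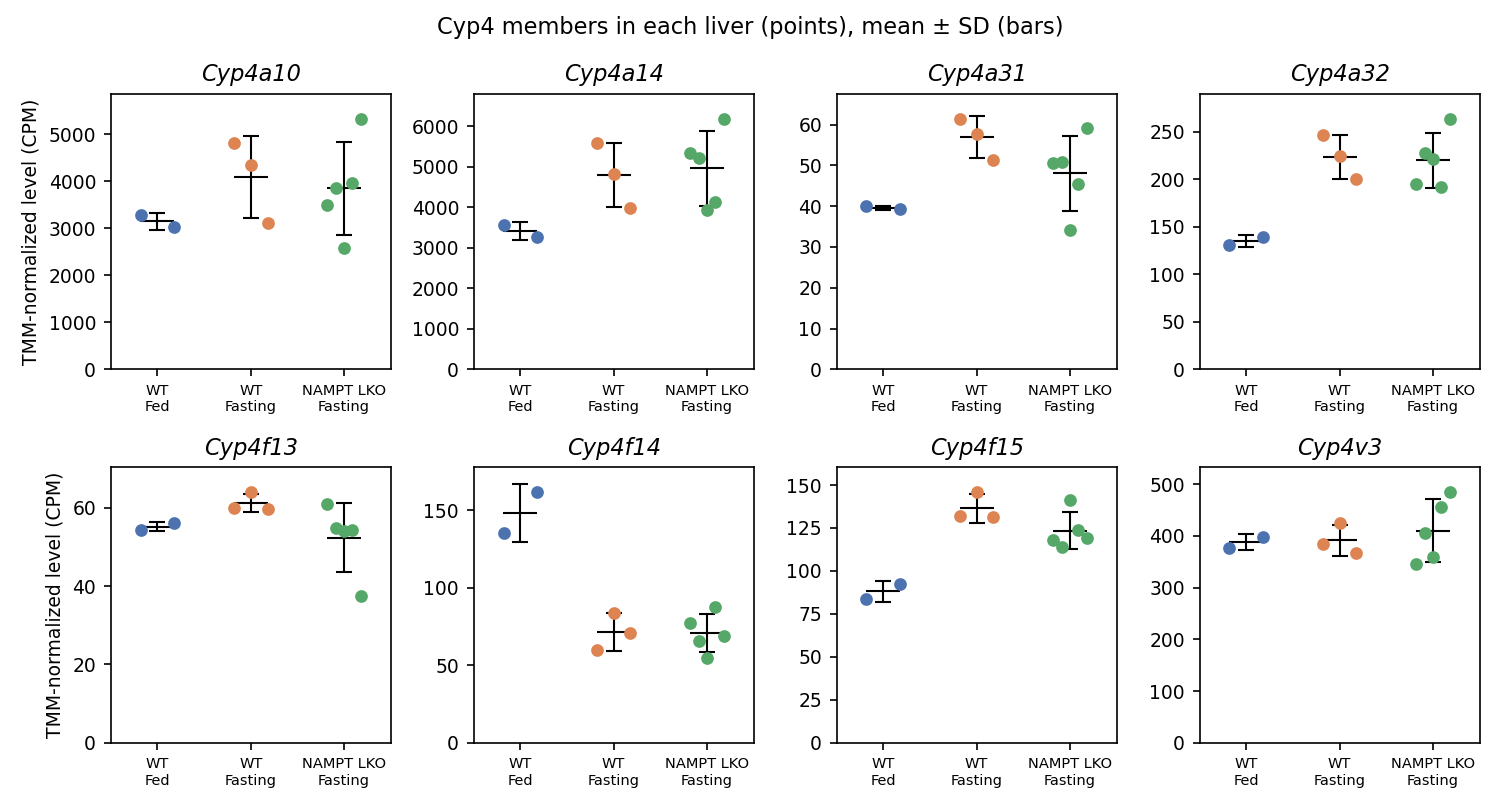
TMM-normalized counts of each Cyp4 member in each liver. Each point is 1 liver and the bars give mean ± SD; the fasted livers lie below the fed ones in Cyp4f14 and above them in Cyp4a14, Cyp4a32 and Cyp4f15, while the WT Fasting and NAMPT LKO Fasting livers overlap in all 8 genes.

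The calls depended on the few fed livers, for all genes as for the members. Without WT Fed replicate 2 no member was called in the fasting comparison, with log2 fold changes of -0.93 for Cyp4f14, 0.69 for Cyp4f15 and 0.77 for Cyp4a32, and the share of all genes called fell from 7.04% to 0.796%. Cyp4f14 was the 1 member called without WT Fed replicate 1, beside 1.43% of all genes, and without WT Fasting replicate 2, beside 3.47%. Without WT Fasting replicate 1, Cyp4f14 and Cyp4f15 were called and Cyp4a32 was not (log2 fold change 0.64, adjusted p = 0.0713, edgeR's quasi-likelihood test), beside 4.0% of all genes. The calls of members fell as those of all genes did. In bulk liver, fewer cells of a type and less RNA per cell cannot be told apart. Marker sums of Kupffer cells and leukocytes and of endothelial cells did not overlap between these groups, where 49.7% of all genes did not either. The summed level of 9 Kupffer cell and leukocyte markers was 112 to 131 CPM in WT Fed and 143 to 256 CPM in WT Fasting livers, with none of the 6 tested markers called. That of 4 endothelial markers was 137 to 138 and 153 to 166 CPM, again with none called. The sums of 7 hepatocyte, 4 bile duct, 4 stellate and 5 red cell markers overlapped between these groups. The bile duct sum is mostly Sox9, and the bile duct keratins Krt7 (0.402 times the fed level, unadjusted p = 0.00918) and Krt19 (0.492 times, unadjusted p = 0.0382, both edgeR's quasi-likelihood test) were lower in every fasted WT liver without being called. The part of these markers in the Cyp4 differences was not tested. Adipocyte markers summed to at most 0.325 CPM and pancreas markers to at most 0.0961 CPM in any liver, with Cpa1 at 0 in all.

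The genotype comparison set fasted NAMPT LKO against fasted WT livers and asked what loss of Nampt in hepatocytes does to these genes in the fasted state. No member was called, and the 2 groups overlapped in all 8. The background was as low, since 0.00744% of the genes tested were called, a single gene that is Nampt itself, and the livers did not overlap in 3.99% of genes. No member had an unadjusted p under 0.05 with edgeR's quasi-likelihood test, and none was called with voomWithQualityWeights, edgeR's exact test or DESeq2. Cyp4a31 had an unadjusted p of 0.0197 with voomWithQualityWeights (log2 fold change -0.35), and of 0.0305 with edgeR's quasi-likelihood test without NAMPT LKO Fasting replicate 5. Neither passed the adjustment (adjusted p = 0.63 and 0.599). Adjusted p-values of the members in the fit of all libraries ran from 0.837 to 0.991. The median log2 fold change of the members was -0.056, against 0.00025 over all genes.

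The fasted levels were closest for Cyp4f14, which was 77.2, 65.5, 54.9, 87.7 and 69.2 CPM in the NAMPT LKO Fasting livers, spread around those of WT Fasting livers. Its log2 fold change was -0.013 (SE 0.16), and the 95% interval from -0.36 to 0.34 reaches from 0.778 to 1.26 times the WT level. Cyp4a32 was 195, 228, 221, 192 and 264 CPM, with a log2 fold change of -0.024 (95% interval -0.30 to 0.25). Cyp4a14 was 5333, 5217, 3936, 4129 and 6187 CPM, and its log2 fold change of 0.050 had an interval from -0.32 to 0.42. For Cyp4a14, the interval leaves room for levels between 0.803 and 1.34 times those of WT Fasting livers. Cyp4a10 was widest, at 3501, 3862, 2576, 3963 and 5331 CPM, with a log2 fold change of -0.088 (95% interval -0.55 to 0.38).

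Cyp4a31, Cyp4f13 and Cyp4f15 had the most negative values of the 8. Cyp4a31 was 50.5, 50.8, 34.2, 45.5 and 59.3 CPM in the NAMPT LKO Fasting livers, and its log2 fold change was -0.24 (95% interval -0.58 to 0.091). Cyp4f13 was 61.0, 54.9, 54.0, 54.4 and 37.5 CPM, with a log2 fold change of -0.23 (95% interval -0.53 to 0.075). Cyp4f15 was 118, 114, 141, 124 and 119 CPM, with a log2 fold change of -0.15 (95% interval -0.36 to 0.070). Every interval included 0. Cyp4v3 was 345, 406, 359, 456 and 485 CPM, and its log2 fold change was 0.067 (95% interval -0.22 to 0.35).

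The highest Cyp4a10, Cyp4a14, Cyp4a31, Cyp4a32 and Cyp4v3 values and the lowest Cyp4f13 value of the NAMPT LKO Fasting livers all came from replicate 5. In this library the deviation of genes from the mean followed their GC content, with a Spearman correlation across genes of -0.581 against -0.0308 to 0.254 in the others. The exons of Cyp4f13 hold 53.9% GC and those of Cyp4v3 44.3%. With the trend with GC content removed from each library, replicate 5 was still the lowest NAMPT LKO liver for Cyp4f13 (42.6 CPM, against 52.1 to 58.5 CPM in the others) and still the highest for Cyp4a10 (4700 CPM), Cyp4a31 (53.1 CPM) and Cyp4a32 (246 CPM). It was no longer the highest for Cyp4a14 (5150 CPM) and Cyp4v3 (394 CPM). Without replicate 5 the log2 fold changes against WT Fasting livers were -0.13 for Cyp4f13, -0.23 for Cyp4a10, -0.33 for Cyp4a31 and -0.10 for Cyp4a32, and no member was called. Without it the same numbers of members were called in the comparisons with WT Fed livers, 3 in each, beside 16.6% of all genes for WT Fasting and 21.1% for NAMPT LKO Fasting livers. Bile duct markers, with a summed level of 13.8 to 16.7 CPM in NAMPT LKO Fasting and 6.51 to 11.2 CPM in WT Fasting livers, were set apart by genotype, though none of the 4 was called (3 had an unadjusted p under 0.05). The collagen gene Col1a1, on the stellate list, was 3.47 times the WT Fasting level and did not overlap (unadjusted p = 0.00293, adjusted p = 0.761, edgeR's quasi-likelihood test), while the sum of that list overlapped. The part of these markers in the values of the members was not tested.

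**Figure D3:**
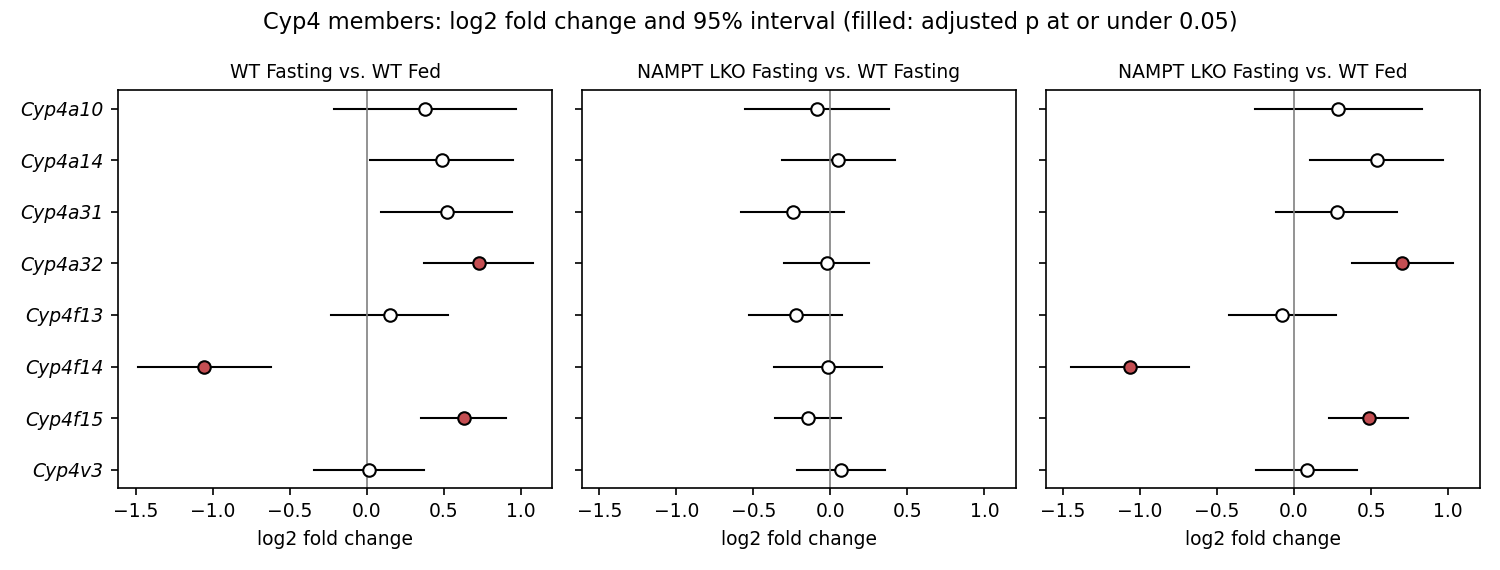
Log2 fold change of each Cyp4 member with its 95% interval in the 3 comparisons, fitted by edgeR, with filled points for an adjusted p at or under 0.05. Cyp4a32, Cyp4f14 and Cyp4f15 are filled in both comparisons with WT Fed livers, and no point is filled in the genotype comparison.

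NAMPT LKO Fasting livers were also set against the WT Fed livers, which asked whether the fasting differences are seen without hepatocyte Nampt. This comparison shares its controls with that of WT Fasting livers, so its values stand beside the earlier ones and add no independent support. Cyp4a32 and Cyp4f15 rose, Cyp4f14 fell, and 5 members did not pass, where 11.2% of all genes were called. The livers did not overlap in 4 members, against 33.5% of all genes. Cyp4f14 fell by 1.07 on the log2 scale (SE 0.17, adjusted p = 0.00384, edgeR's quasi-likelihood test), next to -1.05 in WT Fasting livers. Cyp4a32 rose by 0.70 (SE 0.15, adjusted p = 0.0135, edgeR's quasi-likelihood test), next to 0.73. Cyp4f15 rose by 0.48 (SE 0.12, adjusted p = 0.0232, edgeR's quasi-likelihood test), next to 0.63. The ratio of Cyp4f15 to Cyp4f14 per kilobase ran from 1.49 to 2.72 in the NAMPT LKO Fasting livers, all above the fed range.

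Cyp4a14 lay above the fed range in all 5 NAMPT LKO Fasting livers, with a log2 fold change of 0.54 (SE 0.20, adjusted p = 0.107, edgeR's quasi-likelihood test). It passed with voomWithQualityWeights (0.47, adjusted p = 0.0143) and DESeq2 (0.53, adjusted p = 0.0474), which called 31.8% and 16.7% of all genes. The values were 0.29 for Cyp4a10, 0.28 for Cyp4a31, -0.076 for Cyp4f13 and 0.082 for Cyp4v3, and in each of these the livers overlapped. Without WT Fed replicate 2 no member was called here (Cyp4f14 -0.94, Cyp4a32 0.74 and Cyp4f15 0.55), and without WT Fed replicate 1 only Cyp4f14 was. The share of all genes called fell with them, from 11.2% to 1.68% and 2.58%. Some marker sums of other cells did not overlap between these groups either, where 33.5% of all genes did not. The summed levels in WT Fed and NAMPT LKO Fasting livers were 10.6 to 11.2 and 13.8 to 16.7 CPM for 4 bile duct markers, 48.9 to 51.9 and 55.4 to 65.2 CPM for 4 stellate markers, and 137 to 138 and 145 to 183 CPM for 4 endothelial markers. In each list 1 of 4 was called, beside 11.2% of all genes. These were Epcam (3.17-fold, adjusted p = 0.0400), Col1a1 (5.53-fold, adjusted p = 0.0224) and Kdr (1.30-fold, adjusted p = 0.0475, all edgeR's quasi-likelihood test). The sums of hepatocyte, Kupffer cell and leukocyte, and red cell markers overlapped, with none called. The part of these markers in the values of the members was not tested.

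Promoter sequence from RefSeq (GRCm38.p6) was read for 5 of the 8 members, Cyp4a32, Cyp4f13, Cyp4f14, Cyp4f15 and Cyp4v3. The promoter set held none for Cyp4a10, Cyp4a14 and Cyp4a31, so Cyp4a32 was the only Cyp4a member searched. The last 120 bases before the transcription start are shown for Cyp4a32, Cyp4f15, Cyp4f14 and its neighbour Cyp4f13. In the fasting comparison Cyp4a32 and Cyp4f15 rose and Cyp4f14 fell. Capitals mark a CCAAT box, here as its reverse complement ATTGG.
Cyp4a32, chr4:115600818-115600937, plus strand: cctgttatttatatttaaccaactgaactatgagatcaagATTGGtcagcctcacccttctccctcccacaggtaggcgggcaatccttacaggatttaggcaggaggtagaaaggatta
Cyp4f15, chr17:32685539-32685658, plus strand: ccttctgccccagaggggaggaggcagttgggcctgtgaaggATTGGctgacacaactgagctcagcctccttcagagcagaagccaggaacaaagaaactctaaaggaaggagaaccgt
Cyp4f14, chr17:32917343-32917462, minus strand: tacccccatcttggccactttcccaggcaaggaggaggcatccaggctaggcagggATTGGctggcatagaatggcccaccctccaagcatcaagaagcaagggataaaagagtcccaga
Cyp4f13, chr17:32947362-32947481, minus strand: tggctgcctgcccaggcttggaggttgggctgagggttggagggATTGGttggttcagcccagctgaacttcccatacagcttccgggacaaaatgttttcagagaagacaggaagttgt
The box begins 80 bases before the start in Cyp4a32, 78 in Cyp4f15, 76 in Cyp4f13 and 64 in Cyp4f14 at the start that matches the end of the gene in the files. CCAAT on either strand is in 37.4% of 32544 promoters of the same length, and Cyp4v3 held none. This background counts identical sequences once and leaves out a chromosome, and all promoters below means this set. The box was searched after the sequences had been seen. It lies in genes that rose, fell and did not pass. The direct repeat bound by PPARalpha and its partner RXR was searched as AGGTCANAGGTCA on both strands with up to 2 mismatches. It was in none of the windows of these 5 members and in 3.87% of all promoters. The single half-site AGGTCA was in none either (16.2% of all promoters), nor were the FOXO motif TGTTTAC (3.66%) or the cAMP response half-site TGACG (20.9%). These windows cover 250 bases before and 50 after the start.

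Of the other 19 Cyp4 genes and pseudogenes listed, 7 passed the filter on low counts, and none was called in the fasting comparison. Cyp4f17 came nearest, at 5.94 and 5.88 CPM in the WT Fed livers, 13.8, 9.36 and 9.70 CPM in the WT Fasting livers, and from 7.21 to 12.8 CPM (median 10.9) in the NAMPT LKO Fasting livers. Its livers did not overlap, with a log2 fold change of 0.89 for WT Fasting (adjusted p = 0.0586) and a rise of 0.86 for NAMPT LKO Fasting livers (adjusted p = 0.0392, edgeR's quasi-likelihood test). Cyp4a12a, the male-biased arachidonic acid omega-hydroxylase of the same chromosome 4 cluster, was 396 ± 29.4 CPM (SD, n = 2) in WT Fed, 371 ± 38.5 CPM (SD, n = 3) in WT Fasting and 378 ± 43.8 CPM (SD, n = 5) in the NAMPT LKO livers. These values overlapped, with a log2 fold change of -0.091 in the fasting comparison (95% interval -0.43 to 0.25).

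Cyp4b1, which acts on medium-chain fatty acids and foreign compounds, was 7.15 and 8.55 CPM in the WT Fed livers and 11.1, 10.6 and 12.9 CPM in the WT Fasting livers (log2 fold change 0.56, adjusted p = 0.201, edgeR's quasi-likelihood test). Its fasted livers were higher without passing the test. The log2 fold changes in the same comparison were -0.075 for Cyp4a12b, 0.19 for Cyp4a30-ps, 0.60 for Cyp4f16 and 1.12 for Cyp4a29, the last on at most 49 counts per library. In the genotype comparison the 7 genes lay between -0.23 and 0.11. Among those that did not pass the filter, Cyp4f18, the leukotriene B4 hydroxylase of neutrophils, had 6 to 35 counts per library.

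Cytochromes P450 need electrons, and the gene that supplies most of them was called higher in the fasting comparison, as 2.68% of all genes were. Por, the NADPH-cytochrome P450 reductase, rose in WT Fasting livers by a log2 fold change of 0.77 (SE 0.19, adjusted p = 0.0338, edgeR's quasi-likelihood test). It was the 1 called of 4 electron donor genes, whose median log2 fold change was -0.045, where 7.04% of all genes were called. Cyb5a, Cyb5b and Cyb5r3, the cytochrome b5 proteins and their reductase, had 0.11, -0.45 and -0.20. In the genotype comparison Por had -0.055 and none of the 4 was called.

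Among the alcohol and aldehyde dehydrogenases that act after omega-hydroxylation, 2 fell and none rose in the fasting comparison. Of 6 genes listed, 5 passed the filter on low counts, with a median log2 fold change of -0.19 against 0.037 over all genes. The 2 called compare with 7.04% of all genes. Adh1, the main hepatic alcohol dehydrogenase, fell by 0.70 (SE 0.14, adjusted p = 0.0164, edgeR's quasi-likelihood test), and Adh4 fell by 0.69 (SE 0.17, adjusted p = 0.0321, edgeR's quasi-likelihood test). Aldh3a2, the fatty aldehyde dehydrogenase that makes the dicarboxylic acid, had a log2 fold change of 0.24 (adjusted p = 0.50, edgeR's quasi-likelihood test). None of the 5 was called between genotypes, where Adh1 had 0.19 and Adh4 -0.18.

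In the peroxisomal steps, 2 of 15 genes rose in the fasting comparison, none fell, and the median was 0.31. In that comparison 7.04% of all genes were called. Crat, carnitine acetyltransferase, rose by 0.72 (adjusted p = 0.0262) and Slc27a2, a very long-chain acyl-CoA synthetase, by 0.57 (adjusted p = 0.0441, both edgeR's quasi-likelihood test). Against WT Fed livers, NAMPT LKO livers had 4 risen of the 15, where 11.2% of all genes were called. Among the 4 were Ehhadh, the bifunctional enzyme that acts on dicarboxylic acids (0.76, adjusted p = 0.0420), and Crot, the octanoyl carnitine transferase (0.70, adjusted p = 0.0243, both edgeR's quasi-likelihood test). None of the 15 was called in the genotype comparison, where the median was 0.074 and Ehhadh had 0.48 (adjusted p = 0.801, edgeR's quasi-likelihood test).

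PPARalpha and its partners were measured too. Ppara had a log2 fold change of 0.48 in WT Fasting livers (adjusted p = 0.107) and rose by 0.53 in NAMPT LKO Fasting livers against WT Fed livers (adjusted p = 0.0454, both edgeR's quasi-likelihood test). Its partner Rxra had -0.13 and -0.22. Of 11 genes for the receptor and its cofactors, 1 was called in the fasting comparison, beside 7.04% of all genes. It was Sirt1, the NAD+-dependent deacetylase, which rose by 0.63 (adjusted p = 0.0335, edgeR's quasi-likelihood test). Against WT Fed livers, 3 of the 11 were called in the NAMPT LKO livers, beside 11.2% of all genes. Among them the coactivator Ppargc1a had 1.76 (adjusted p = 0.0236, edgeR's quasi-likelihood test). Medians were 0.18 and 0.21.

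The largest rises in these lists were among the other targets of PPARalpha. Of 14, 4 rose and none fell in the fasting comparison, with a median of 0.76, where 7.04% of all genes were called. Pdk4, the kinase that shuts pyruvate dehydrogenase, rose by 3.00 on the log2 scale (adjusted p = 0.00715, edgeR's quasi-likelihood test). Fgf21, the fasting hormone of liver, rose by 2.92 (adjusted p = 0.00987, edgeR's quasi-likelihood test). Angptl4, an inhibitor of lipoprotein lipase, rose by 2.38 (adjusted p = 0.000253, edgeR's quasi-likelihood test), and Plin2, a lipid droplet coat, by 1.09 (adjusted p = 0.00663, edgeR's quasi-likelihood test). The Cyp4a members ran from 0.38 to 0.73. Against WT Fed livers, 8 of the 14 rose in the NAMPT LKO livers, where 11.2% of all genes were called. Between the fasted groups none of the 14 was called (median 0.18). Whether the lists differ from the members was not tested.

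**Figure D4:**
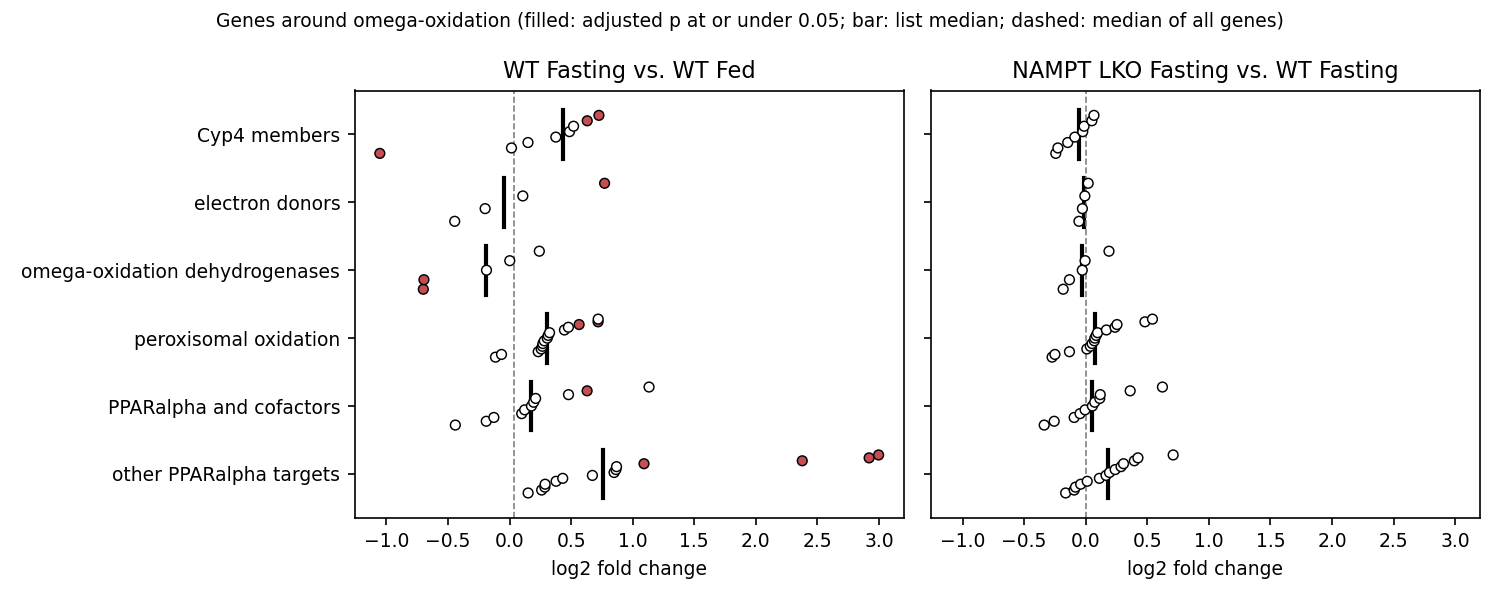
Log2 fold change of every tested gene of 5 lists around omega-oxidation beside the 8 Cyp4 members, in the fasting comparison (left) and the genotype comparison (right). Filled points had an adjusted p at or under 0.05, bars are list medians and dashed lines the median of all genes (0.037 and 0.00025); the filled points are all in the left panel.

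Across the 10 livers the Cyp4a members ran together, with a Pearson's r of log2 levels from 0.57 to 0.87 between pairs. This is a description over 10 points that hold the feeding difference and share each library's depth and GC trend. The value was 0.79 between Cyp4a10 and Cyp4a14, 0.87 between Cyp4a10 and Cyp4a31 and 0.83 between Cyp4a14 and Cyp4a32. Cyp4f14 ran against Cyp4a32 (r = -0.89) and Cyp4f15 (r = -0.81), and Cyp4f13 followed neither (0.080 with Cyp4f14 and 0.18 with Cyp4f15). Among 9147 genes whose mean reached 5 CPM, the levels most like those of Cyp4a14 over the 10 livers were those of Naca (r = 0.97), Cidec (0.95), Atxn2, Acot2 and Hmgb3 (each 0.94). Cidec encodes a lipid droplet protein and Acot2 a mitochondrial acyl-CoA thioesterase. Those most like Cyp4f14 were Phf6 (r = 0.98), Hsd3b2, Mmp19, Slc22a30 (each 0.97) and Tigar (0.96). All 5 fell in the fasting comparison, between -1.56 for Hsd3b2 and -0.56 for Phf6 on the log2 scale. Their choice by likeness to Cyp4f14 over these same livers favours such a fall. None of the 5 most like Cyp4a14 was called there (adjusted p from 0.0616 to 0.342, edgeR's quasi-likelihood test).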

How the data were processed

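The authors selected polyadenylated liver RNA, sequenced single reads of 50 bases, aligned them to GRCm38 with STAR and deposited counts of unique, unambiguous reads per Ensembl gene from featureCounts (2.5.1a and 1.4.6-p5 in the submitters' processing notes, with other versions in the published methods). The deposited CPM (counts scaled by library total) and deposited RPKM (CPM per kilobase of exon) follow from those counts and were not used for tests. Whether counting used strand is not given in the sources used here. Total counts of 30603080 to 43434139 leave at least 1267 counts per member and library.

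The filter kept genes exceeding 1 CPM in 1 or more libraries, 355 rRNA genes were left out, and 13444 were tested in 1 fit of 10 libraries with edgeR 4.0.16 in R 4.3.3 (TMM, quasi-likelihood test, Benjamini-Hochberg adjustment, called at 0.05), which was tested on simulated data. The labels give the WT Fed samples no replicate number, no replicates agreed within sampling noise (chi-square per degree of freedom 32.6 to 388), and p-values measure only the spread between samples. Deviations from the group mean correlated across genes at 0.076 to 0.16 between same-numbered WT Fasting and NAMPT LKO samples, of those numbered 1 to 3. They correlated at -0.12 to -0.012 between differently numbered ones. The main fit did not take numbers as pairs. Alternatives were limma 3.58.1 (voomWithQualityWeights), the exact test, DESeq2 1.42.0, other normalizations and filters, 2 groups only, paralogs summed, each library left out and a replicate block. Removal of the trend with GC content was chosen after seeing the data. The members and lists were chosen with earlier results of these data known. Named genes are all members, every other Cyp4 gene that passed the filter, up to 4 genes per list with the lowest p for fasting in WT livers and 2 for genotype in fasted livers, Ppara, Rxra and Por, and the 5 genes most correlated with Cyp4a14 and with Cyp4f14. Cyp4f18 was named after its values were seen.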

Additional observations from a re-analysis of the deposited data

Results flagged for a closer look

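Of the 8 members and 7 other Cyp4 genes in the 5 NAMPT LKO Fasting livers, 1 had a liver far from the rest. Cyp4a12b, the close copy of Cyp4a12a, was 21.0 CPM in replicate 3 and 31.8 to 34.9 CPM in the other livers, a gap of 0.778 of the group's range where Dixon's limit for 5 samples is 0.71. Chance alone flags about 1 in 20 groups, and 15 were looked at. Cyp4f13 in replicate 5 came just under the limit, with a gap of 0.701.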

How the results depend on the processing

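The number of members called in the fasting comparison (WT livers) was 3, and 5 with voomWithQualityWeights, 4 with only the 2 groups compared, 2 with the near-identical Cyp4a10, Cyp4a31 and Cyp4a32 summed, where Cyp4a32 has no row of its own and Cyp4a10 holds most of the counts, and 1 when an absolute change of 1 on the log2 scale was also asked. It ranged from 0 to 3 with each library left out, where the lone WT Fed sample was assumed to vary like the other groups. In NAMPT LKO Fasting vs. WT Fed livers it was 3, with 4 for voomWithQualityWeights and DESeq2, 2 with library size alone, with no filter on low counts or with only 2 groups, 2 with the summed row, 1 at an absolute log2 change of 1 or more, and 0 to 3 with each library left out. It was 0 in the genotype comparison (fasted livers) in every alternative run. There the replicate block over libraries numbered 1 to 3 gave 0 calls, as did the same libraries without the block. With the block, Cyp4a31 (-0.35, unadjusted p = 0.0142) and Cyp4a10 (-0.30, unadjusted p = 0.0252, both edgeR's quasi-likelihood test) were under 0.05 before adjustment (adjusted p = 0.699 and 0.721), against 0 members without it. The numbers were not shown to pair mice, although each of these libraries correlated best with its own number. All genes called rose from 946 to 3331 with voomWithQualityWeights, 1646 with DESeq2, 1617 with 2 groups only and 1422 without the GC trend in the fasting comparison, with 397 at an absolute log2 change of 1 or more and 107 to 2235 with each library left out. The share of all genes called moved from 7.04% to 24.8%, 12.2% and 12.0% in the first 3 of these. In NAMPT LKO Fasting vs. WT Fed livers it moved from 11.2% to 31.8% with voomWithQualityWeights, 16.7% with DESeq2, 10.6% with library size alone, 5.11% with no filter and 8.46% with 2 groups only. There 1510 became 4281 with voomWithQualityWeights, 491 at that size and 226 to 2835 with each library left out, the highest in both without NAMPT LKO Fasting replicate 5. In the genotype comparison 1 became 24 with the exact test or DESeq2, 3 with filterByExpr, with no filter or without the GC trend, and 2 with library size alone.

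Values that changed sign were all near 0 and uncalled, and their cause was not tested. Cyp4v3 turned to -0.050 with library size alone, -0.00012 with no filter and -0.00083 with 2 groups only (fasting comparison), and to -0.018 with library size alone (NAMPT LKO Fasting vs. WT Fed). In the genotype comparison it turned to -0.031 with voomWithQualityWeights, -0.083 with the replicate block, -0.082 without the block in the same libraries and -0.010 without the GC trend. In the same comparison Cyp4a14 turned to -0.051 with voomWithQualityWeights and -0.028 with the GC trend removed, and Cyp4f14 to 0.042 with the GC trend removed. With each library left out in turn, the log2 fold changes between fasted groups ran from -0.25 to 0.046 for Cyp4a10, -0.067 to 0.17 for Cyp4a14, -0.10 to 0.052 for Cyp4a32, -0.13 to 0.12 for Cyp4f14 and -0.0011 to 0.13 for Cyp4v3. They ran from -0.047 to 0.053 for Cyp4v3 in the fasting comparison, and from -0.14 to 0.026 for Cyp4f13 in NAMPT LKO Fasting vs. WT Fed livers. Cyp4f15 in the last comparison lost its call with library size alone (0.40, adjusted p = 0.0901), no filter (0.46, adjusted p = 0.0634) and 2 groups only (0.47, adjusted p = 0.0547, all edgeR's quasi-likelihood test). Levels of Cyp4a10, Cyp4a31 and Cyp4a32 against each other are limited by the unique placement of reads.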
